A study of Oryza sativa with 10 samples.

Results

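A set of 193 genes on chromosome 1 of rice had lower transcript levels after 8 h of light than in dark-grown seedlings. At 24 h their mean levels were still below those in darkness, though some had risen in part. They were chosen from the values themselves. A gene was taken when its level at 8 h was lower than at 0 h by 0.5 or more, and when its level at 24 h was above that at 8 h by less than 0.5, both on the scale of log2 of the mean FPKM plus 1. FPKM counts the sequenced fragments of a gene per unit of gene length and of library size. The average of the gene over the 10 libraries also had to reach 1 FPKM. The 193 members were 17.7% of the 1092 genes that passed this filter and 8.46% of the 2282 genes in the part of the table used here, which ends at position 21262392 of chromosome 1 (MSU7.0 gene models).

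The seedlings were of the indica cultivar YD6, germinated for 3 d in darkness and then moved to light. RNA was sequenced at 0 h (darkness), at 8 h and at 24 h of light, and from 24 h seedlings sprayed for 30 min with 100 μM abscisic acid (ABA) or 100 μM indole-3-acetic acid (IAA). Each of these 5 conditions had 2 biological replicates. Both hormones were dissolved in DMSO. The study's methods include a spray of DMSO alone, but the labels do not say whether the 24 h libraries came from it, so a response to the spray and one to the hormone cannot be told apart against 24 h. All comparisons rest on whole seedlings, in which fewer cells of a type and less RNA per cell cannot be told apart.

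A cereal seedling that germinates in darkness follows skotomorphogenesis, in which reserves go into elongation of the coleoptile and plastids stay without chlorophyll. Light then starts photomorphogenesis. In Arabidopsis, photoreceptors switched on by light inactivate the PIF transcription factors and the COP1 ubiquitin ligase that keep the dark programme on, so that many genes of the dark state are turned down within hours. IAA, the main natural auxin, promotes cell elongation and acts on transcription within minutes, as the Aux/IAA repressors are degraded. ABA, a hormone of seed dormancy and water stress, acts through PP2C phosphatases and SnRK2 kinases on bZIP transcription factors. Whether a short exposure to either hormone in the light brings back transcripts that were higher in darkness is the question that the hormone libraries address here.

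The table used here does not pair gene IDs with names, and 1 of its 2282 IDs was matched in the RefSeq gene table, which was not a member, so the roles of the members are not given. At most 2 IDs are printed for each direction of a comparison, and other members are given by their position on chromosome 1. OsbZIP1 (LOC_Os01g07880), a homologue of the Arabidopsis light-signalling factor HY5 that lies in this stretch, was not a member. Its change was -0.24 from 0 to 8 h and -0.46 from 8 to 24 h. Markers of the seedling or its tissues could not be checked.

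Across the 1092 genes, replicates correlated between 0.990 (24 h) and 0.996 (8 h) on the log2(FPKM + 1) scale, which is across genes and not across independent samples. The 24 h replicates lay farthest apart among the members, with a median absolute difference of 0.15 against 0.07 at 0 h, and the median of the members was 5.61 FPKM in replicate 1 and 5.14 FPKM in replicate 2. The median over all 1092 genes also moved, by -0.18 from 0 to 8 h, by -0.18 from 8 to 24 h, by 0.13 from 24 h to IAA and by -0.10 from 24 h to ABA, and the members' changes are given beside these shifts.

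In darkness the members spanned 1.57 to 420 FPKM, with a median of 11.9 FPKM, against 10.3 FPKM over all 1092 genes. Their median was 6.36 FPKM at 8 h, 5.53 FPKM at 24 h, 5.75 FPKM with ABA and 7.17 FPKM with IAA. Per gene, the median level was 57.4% of the dark level at 8 h and 49.5% at 24 h. The set was therefore lowered rather than lost. Of the 193 members, 31 were lower by 1 or more on the log2 scale at 8 h and 7 by 2 or more. At 8 h 7 members had a mean under 1 FPKM and 113 still had 5 FPKM or more. At 24 h 13 members were under 1 FPKM.

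**Figure D1:**
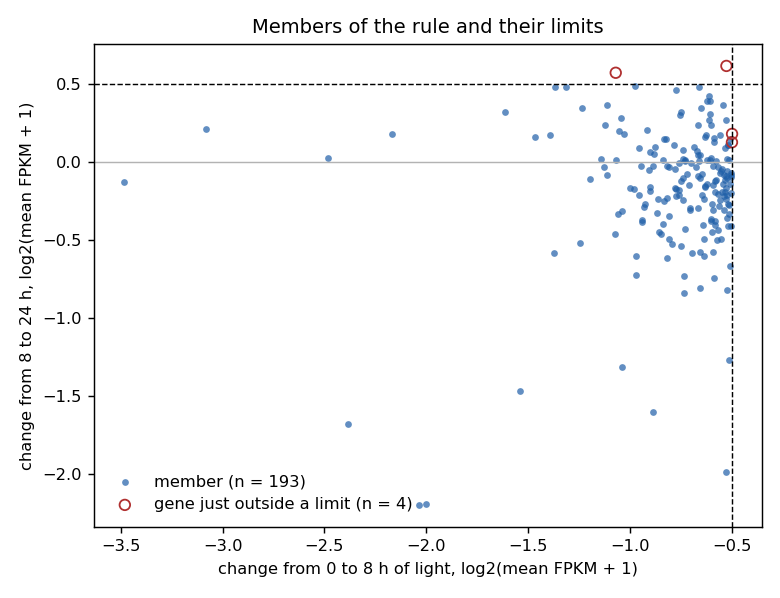
Change of each of the 193 members from 0 to 8 h of light (x axis) and from 8 to 24 h (y axis), both as differences of log2(mean FPKM + 1). Dashed lines are the limits of the rule at -0.5 and 0.5, open circles are the 2 genes just outside each limit, and most members lie close to the limit on the x axis while 7 lie at -2 or below.

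The changes from 0 to 8 h ran from -3.48 to -0.50, with a median of -0.68. These values chose the members and are given as a description, with no test. Both 8 h libraries lay below both 0 h libraries in all 193 members and in 57.9% of all tested genes, a contrast that the rule builds in. Libraries were also rescaled by median-of-ratios factors, which set the typical gene of this stretch to no change. The factors came from its genes above 0 in every library. They ran from 0.838 (ABA replicate 1) to 1.24 (0 h replicate 1). With them every member was still lower at 8 h, by 0.28 or more, but only 88 of the 193 (45.6%) still met the rule. At the limit the set was not separated from its neighbours. The members with the smallest change stood at -0.5033 and -0.5035, and the genes just outside at -0.4992 and -0.4987. On the other limit, the changes from 8 to 24 h were 0.488 and 0.480 just inside and 0.572 and 0.616 just outside, and 19 genes met the first limit and missed the second.

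The rule was repeated in each replicate alone. It gave 191 genes in replicate 1 and 209 in replicate 2, and 149 genes were found in both. In the genes chosen in replicate 1, the median change from 0 to 8 h in replicate 2, which did not choose them, was -0.67, and all 191 were lower at 8 h there. In those chosen in replicate 2, the median change in replicate 1 was -0.64, and 205 of 209 were lower. Most tested genes were lower at 8 h too. Their median change was -0.18, and both 8 h libraries lay below both 0 h libraries in 57.9% of them. The share lower in a single replicate was not computed over all tested genes. The counts above therefore describe how far the change repeated between replicates and are not a test of it.

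The largest difference was that of LOC_Os01g12570 (minus strand, 6912704 to 6915127). It was listed at 14.1 and 14.4 FPKM at 0 h, 0.444 and 0.287 FPKM at 8 h, 0.176 and 0.318 FPKM at 24 h, 0.578 and 0.689 FPKM with ABA, and 1.40 and 1.46 FPKM with IAA. The 2 dark libraries stood 39.0-fold above those at 8 h on average, and no library in the light came near them. LOC_Os01g09220 (plus strand, 4646427 to 4648260) was next, with 13.9 and 13.3 FPKM at 0 h, 0.592 and 0.862 FPKM at 8 h, and 0.836 and 1.16 FPKM at 24 h. Its change from 0 to 8 h was -3.08.

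Among the 12 members with the lowest change at 8 h, the later course differed. A gene at 13899523 to 13900729 had 32.7 and 34.1 FPKM at 0 h, 6.83 and 7.98 FPKM at 8 h, and 0.998 and 0.661 FPKM at 24 h. It stayed under 1 FPKM in all ABA and IAA libraries, so that neither spray was followed by a level near that in the dark. A gene at 7185483 to 7188038 went from 55.8 and 52.4 FPKM at 0 h to 9.85 and 9.27 FPKM at 8 h and to 2.87 and 1.71 FPKM at 24 h. Both were lower again after 8 h, while a gene at 11245197 to 11246756 was level in the light, with 3.84 and 4.55 FPKM at 8 h and 5.005 and 4.76 FPKM at 24 h, after 22.2 and 22.5 FPKM in the dark. It had 10.5 and 10.7 FPKM with ABA and 13.7 and 11.8 FPKM with IAA, and the rise with IAA was called (a log2 difference of 1.22 with SE 0.0916, limma adjusted p = 9.01e-07), while that with ABA, at 0.98, was just under the 2-fold limit.

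Over all members, 26 were lower again by 0.5 or more at 24 h than at 8 h, 103 were lower again by less than that, and 64 were level or in part higher. The median change from 8 to 24 h was -0.13 and the range was from -2.20 to 0.49. Both 24 h libraries lay below both 0 h libraries in 192 of the 193 members and in 68.1% of all tested genes. The rule keeps the mean at 24 h below that at 0 h, so nothing is read from this contrast. With that rescaling the change from 0 to 24 h reached 0.23 at its highest, so that not every member stayed below its dark level on that scale.

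The member with the highest mean level kept most of it. LOC_Os01g22010 (minus strand, 12363709 to 12366314) had 427 and 414 FPKM at 0 h, 275 and 276 FPKM at 8 h, and 362 FPKM in both libraries at 24 h. Its 24 h libraries lay between those at 8 h and those at 0 h. With ABA it had 395 and 401 FPKM and with IAA 360 and 366 FPKM, and neither hormone comparison with 24 h was called. The second highest, a gene of short span at 6704403 to 6704666, had 301 and 298 FPKM at 0 h, 193 and 191 FPKM at 8 h, and 168 and 121 FPKM at 24 h, with a gap between the 24 h replicates. It had 271 and 256 FPKM with ABA and 289 and 270 FPKM with IAA, all above 24 h and below 0 h, and its fitted changes of 0.88 and 0.96 were under the 2-fold limit.

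**Figure D2:**
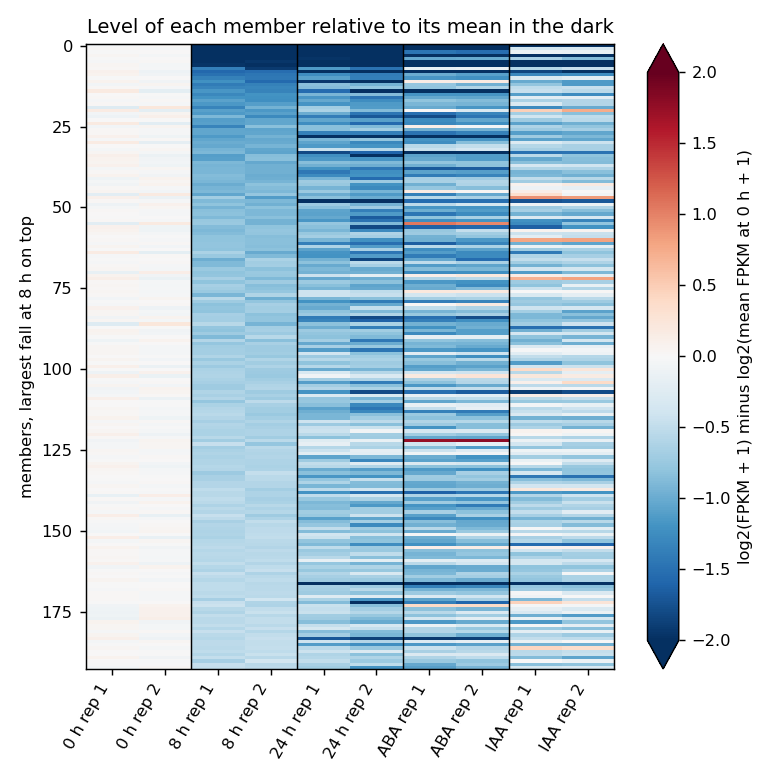
Level of each member (rows, ordered by the change from 0 to 8 h) in each of the 10 libraries (columns), as log2(FPKM + 1) minus log2 of the mean FPKM at 0 h plus 1, with blue below and red above the dark mean. The columns for 8 h are blue throughout because the rule chose them so, and paler or red rows stand among the ABA and IAA columns.

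The ABA and IAA libraries were not used to choose the members except through the filter on the mean, but the 24 h libraries with which both are compared were. With IAA, 23 members were called higher than at 24 h (11.9% of the members) and 0 lower, where a call is a 2-fold difference or more on the log2(FPKM + 1) scale with an adjusted p under 0.01 (limma, Benjamini-Hochberg over all tested genes), against 4.67% higher and 0.0916% lower over all tested genes. At an adjusted p under 0.01 whatever the size, 85 were higher and 4 lower, against 28.3% and 7.6% of all tested genes. At an unadjusted p under 0.05 in limma, 108 members were higher (56%) and 12 lower (6.22%), against 41.4% and 15.1% of all tested genes. A fitted change above 0 was found in 149 of 193, against 65.4% of all tested genes. The median change of the members was 0.29, against 0.13 over all tested genes. Without 24 h replicate 1, 30 members and 68 of all 1092 tested genes were called higher, and without 24 h replicate 2, 18 members and 42 tested genes.

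When the members were chosen with only 1 of the 24 h replicates and compared with the other, the median change with IAA was 0.32 or 0.27, against medians of 0.15 or 0.13 over all tested genes. Rescaled by median-of-ratios factors it was 0.15, against -0.01 for the tested genes as a whole, and 16 of the 23 members were still called, with 36 calls over all tested genes. With each of the 4 libraries left out in turn, 16 of the 23 were called each time.

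In all 23 called members both IAA libraries lay above both 24 h libraries, which the call largely builds in. Over all 193 members this held in 122 (63.2%), against 51.2% of all tested genes. The values below are for the 23 called members. Their changes ran from 1.03 to 2.53 on the log2(FPKM + 1) scale, which understates the change of low genes. Their IAA levels were 11.8% to 214% of the dark level. In 11 of them the IAA mean was at or above the dark mean, and in 12 it was below. In 11 of the 23 both IAA libraries lay below both 0 h libraries, as in 57.5% of all tested genes. In 8 both lay above, a count for which the share of all tested genes was not computed. The 23 were called for a rise with IAA, so nothing is read from this count.

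LOC_Os01g09220 had the largest rise. It was at 0.836 and 1.16 FPKM at 24 h and at 10.4 and 10.7 FPKM with IAA, against 13.9 and 13.3 FPKM in the dark. This is a log2 difference of 2.53, with SE 0.122 and limma adjusted p = 2.72e-08. With ABA it had 1.58 and 1.97 FPKM (log2 difference 0.47, limma adjusted p = 0.0107), so the IAA libraries alone in the light approached the dark level, at 77.2% of it.

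LOC_Os01g28790 (plus strand, 16130515 to 16131447) was next. It had 33.7 and 34.2 FPKM at 0 h, 5.53 and 4.98 FPKM at 8 h, 6.12 and 4.598 FPKM at 24 h, and 30.9 and 30.7 FPKM with IAA. The IAA libraries reached 90.7% of the dark level, and the log2 difference from 24 h was 2.33, with SE 0.1005 and limma adjusted p = 2.26e-08. With ABA it was at 11.7 and 11.1 FPKM, above 24 h and well below IAA, with a log2 difference of 0.98 that lay just under the 2-fold limit and was 1.11 once rescaled.

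Other members went past their dark level with IAA. A gene at 1217006 to 1218122 had 4.27 and 4.15 FPKM at 0 h, 1.78 and 1.25 FPKM at 24 h, 1.69 and 1.34 FPKM with ABA, and 8.03 and 8.12 FPKM with IAA. A gene at 2202264 to 2203860 had 3.11 and 2.53 FPKM at 0 h, 1.14 and 0.916 FPKM at 24 h, 1.59 and 1.45 FPKM with ABA, and 6.16 and 5.91 FPKM with IAA. In both genes the IAA libraries stood above all other libraries, at 192% and 214% of the dark level. A gene at 9114002 to 9114253 did so too, with 27.5 and 23.9 FPKM with IAA against 19.7 and 19.8 FPKM at 0 h, but its 24 h libraries were at 10.4 and 3.95 FPKM, and its change of 1.83 from 24 h became 1.23 when 24 h replicate 2 was left out and 2.43 when replicate 1 was.

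The member with the lowest share of its dark level among the 23 was at 1353629 to 1354802. It had 355 and 333 FPKM at 0 h, 87.4 and 83.2 FPKM at 8 h, and 18.4 and 17.2 FPKM at 24 h. With IAA it rose to 41.5 and 39.4 FPKM, 11.8% of the dark level (log2 difference 1.14 with SE 0.0602, limma adjusted p = 6.23e-08), or 0.97 once rescaled, which is under the 2-fold limit.

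**Figure D3:**
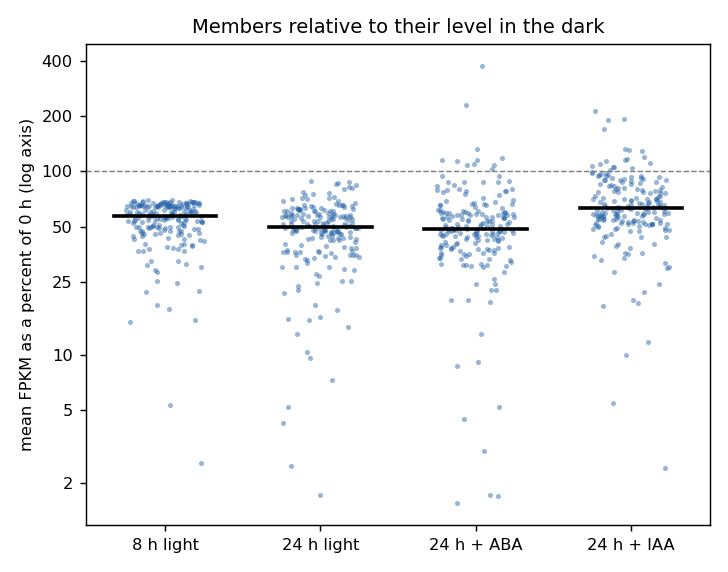
Mean FPKM of each of the 193 members in each lit condition, as a percent of its mean at 0 h (log axis), where each point is 1 gene, the bar is the median over members and the dashed line is the dark level. The medians are 57.4% for 8 h, 49.5% for 24 h, 48.7% for ABA and 62.8% for IAA.

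With ABA, 6 members were called higher than at 24 h (3.11%) and 1 lower (0.518%), against 1.65% higher and 0.366% lower over all tested genes. The median change of the members was -0.02, against -0.10 over all tested genes, and once rescaled the member median turned to 0.09, against 0.007 over all tested genes, and 13 members and 26 of all tested genes were called higher. Without 24 h replicate 1, 12 members and 28 tested genes were called higher. Without 24 h replicate 2, 4 members and 15 tested genes were higher, and 2 members and 5 tested genes lower. At an adjusted p under 0.01 whatever the size, 25 members were higher and 11 lower, against 7.51% and 12.2% of all tested genes. In 5 of the 6 members called higher both ABA libraries lay above both 0 h libraries, for which the share of all tested genes was not computed. In 1 both lay below, as in 71.9% of all tested genes. These 6 were called for a rise with ABA, so nothing is read from the 2 counts. Their ABA levels ran from 89.0% to 375% of the dark level.

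LOC_Os01g03330 (minus strand, 1344557 to 1346419) rose most with ABA. It had 7.63 and 6.79 FPKM at 0 h, 2.54 and 1.79 FPKM at 8 h, 1.16 and 1.07 FPKM at 24 h, 8.11 and 8.32 FPKM with ABA, and 3.09 and 2.72 FPKM with IAA. The ABA libraries were the only ones in the light to reach the dark level. The log2 difference from 24 h was 2.12, with SE 0.123 and limma adjusted p = 1.82e-07.

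LOC_Os01g09640 (minus strand, 4971171 to 4973555) had 6.45 and 7.14 FPKM at 0 h, 3.80 and 4.38 FPKM at 8 h, 5.61 and 6.03 FPKM at 24 h, and 25.05 and 25.9 FPKM with ABA. This is 375% of the dark level, with a log2 difference from 24 h of 1.96, SE 0.0884 and limma adjusted p = 2.48e-08. The IAA libraries, at 6.20 and 5.98 FPKM, were close to those of 24 h and overlapped them. A gene at 4179159 to 4181434 had 11.7 and 12.1 FPKM at 0 h, 5.69 and 5.36 FPKM at 24 h, 12.1 and 13.6 FPKM with ABA, and 6.52 and 6.24 FPKM with IAA, so that its ABA libraries alone were back at the dark level.

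The member called lower with ABA was LOC_Os01g37000 (plus strand, 20640981 to 20643886). It had 33.8 and 29.4 FPKM at 0 h, 10.04 and 10.4 FPKM at 8 h, 2.96 and 3.12 FPKM at 24 h, 0.688 and 0.402 FPKM with ABA, and 8.14 and 7.33 FPKM with IAA. Its levels after the sprays lay on opposite sides of those at 24 h, by -1.39 with ABA (SE 0.109, limma adjusted p = 1.98e-06) and by 1.11 with IAA (SE 0.109, limma adjusted p = 5.52e-06). With IAA it was still at 24.5% of the dark level, and the difference with IAA was 0.97 once rescaled, under the 2-fold limit.

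**Figure D4:**
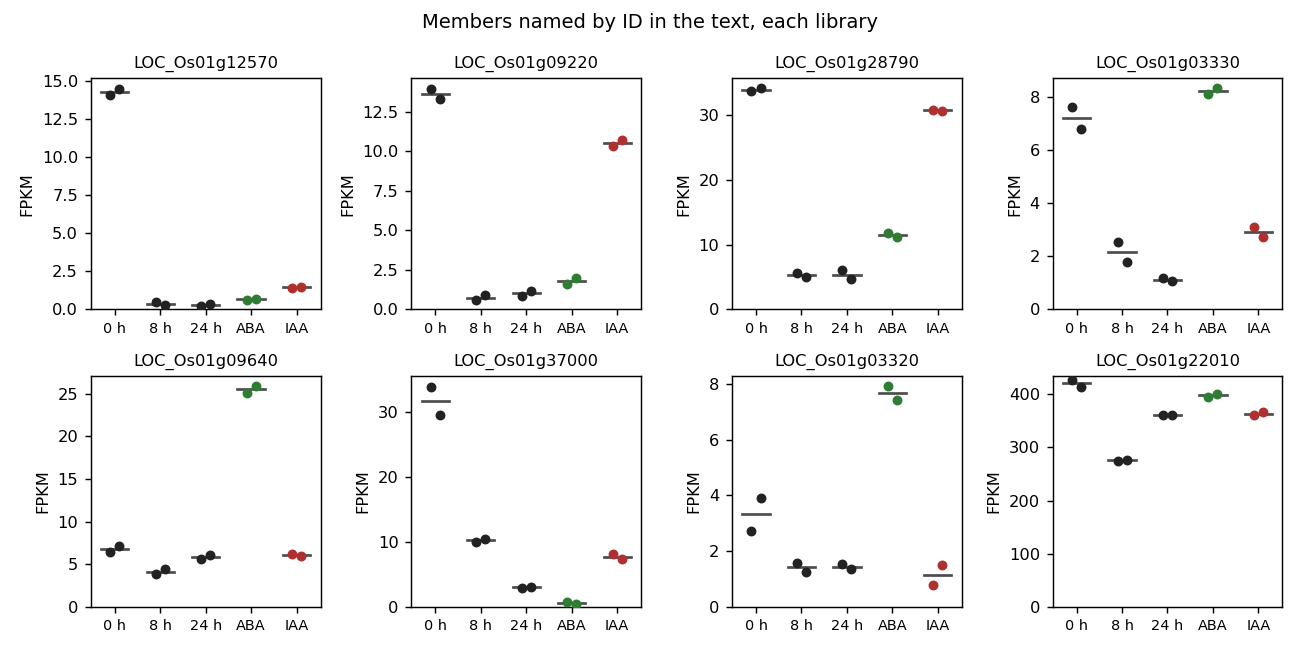
FPKM of the 8 members named by ID in each library (points, with a bar at the mean of the 2 replicates) at 0, 8 and 24 h of light (black), with ABA (green) and with IAA (red), on axes that start at 0. The IAA points of LOC_Os01g28790 lie at 30.9 and 30.7 FPKM, next to 33.7 and 34.2 FPKM in the dark, while the ABA points of LOC_Os01g09640 lie at 25.05 and 25.9 FPKM, above all its other libraries.

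Between the hormones, which share the solvent and do not involve the 24 h libraries, 16 members were higher with IAA (8.29%) and 3 higher with ABA (1.55%), against 4.85% and 0.916% over all tested genes. The median difference between IAA and ABA was 0.25 over the members and 0.21 over all tested genes. Once rescaled, the member median was 0.004, against -0.039 over all tested genes. Of the 16, 12 were still called, and all 3 of the members higher with ABA were. The members called were then 12 higher with IAA and 5 higher with ABA, against 27 and 18 over all tested genes. All 16 had both IAA libraries above both ABA libraries, which the call largely builds in, with differences from 1.06 to 2.50. Over all 193 members this held in 123 (63.7%), against 62.5% of all tested genes. With any library of these groups left out in turn, 15 of the 16 and all 3 were called each time.

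The largest difference was that of LOC_Os01g37000 (2.50 in log2 units with SE 0.109, limma adjusted p = 1.55e-08), and LOC_Os01g09220 followed (2.06 with SE 0.122, limma adjusted p = 2.16e-07). A gene at 8191077 to 8192462 was among the 5 largest, with 6.09 and 4.45 FPKM at 0 h, 1.17 and 0.519 FPKM at 24 h, 0.297 and 0.250 FPKM with ABA, and 3.55 and 3.32 FPKM with IAA. In the other direction stood LOC_Os01g03320 (minus strand, 1341319 to 1342277) at -2.03 (SE 0.170, limma adjusted p = 1.74e-06). It had 2.73 and 3.91 FPKM at 0 h, 1.53 and 1.35 FPKM at 24 h, 7.92 and 7.41 FPKM with ABA, and 0.790 and 1.51 FPKM with IAA, so that only its ABA libraries lay above those in the dark. LOC_Os01g09640 followed with -1.90 (SE 0.0884, limma adjusted p = 2.32e-08).

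To describe where the levels with each hormone stood between 24 h and the dark, the share of the fall from 0 to 24 h that was regained was computed for the 168 members in which that fall was 0.5 or more. It is 0% at the 24 h level and 100% at the dark level, and it shares the 24 h and 0 h libraries with the rule. The median was 33.4% with IAA, and the quartiles over these members were 6.27% and 62.3%. With IAA 13 members regained all of the fall and 59 regained 50% or more, while 36 lay below their 24 h level. With ABA the median was -3.34%, 7 members regained all and 15 regained 50% or more, and 90 lay below their 24 h level. The ABA value depends on the scaling, since it was 21.1% with median-of-ratios factors, where IAA gave 41.7%.

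Over all 193 members, the IAA mean was at or above the lower dark library in 22 genes (11.4%) and the ABA mean in 12 (6.22%), against 37.5% and 26.3% of all tested genes. Once rescaled, these counts were 48 and 37, against 56.5% and 55.4%. The 0 h libraries chose the members, so that a lower share among them than over all tested genes is built in. Both IAA libraries lay below both dark libraries in 162 members, and both ABA libraries in 181, against 57.5% and 71.9% of all tested genes. These counts are a description, in which most members stayed below their dark level with either hormone.

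Higher levels with IAA were also found outside the set. Among the 248 tested genes that were not members and were lower at 24 h than at 0 h by 0.5 or more, the median share regained was 45.9% with IAA and -11.1% with ABA. Of these, 19 (7.66%) were called higher with IAA than at 24 h and 23 (9.27%) higher with IAA than with ABA, and among the 168 members the same counts were 23 (13.7%) and 16 (9.52%). The differences between these shares were not tested.

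Calls were more frequent among the members with the lowest change at 8 h. Of the 31 members that were lower by 1 or more at 8 h, 10 (32.3%) were called higher with IAA than at 24 h and 7 (22.6%) higher with IAA than with ABA, and among the other 162 members it was 13 (8.02%) and 9 (5.56%). The median change with IAA was 0.71 in the first group and 0.23 in the second. With ABA, 2 (6.45%) and 4 (2.47%) were called higher than at 24 h, and 1 and 0 lower. The median changes with ABA were 0.12 and -0.04. These shares were not compared by a test. Of the 46 tested genes that were instead higher by 1 or more at 8 h, 3 (6.52%) were called higher with IAA than at 24 h. In this group 4 (8.7%) were called higher with IAA than with ABA, and 0 higher with ABA than at 24 h. Across the 193 members, which share their libraries and are not independent, the change from 0 to 8 h had a rank correlation of -0.29 with the change from 24 h to IAA, -0.21 with that from 24 h to ABA, and -0.16 with the difference between IAA and ABA. Over all 1092 tested genes these values were -0.21, -0.14 and -0.09, and the 24 h libraries are shared by the first and second of them.

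**Figure D5:**
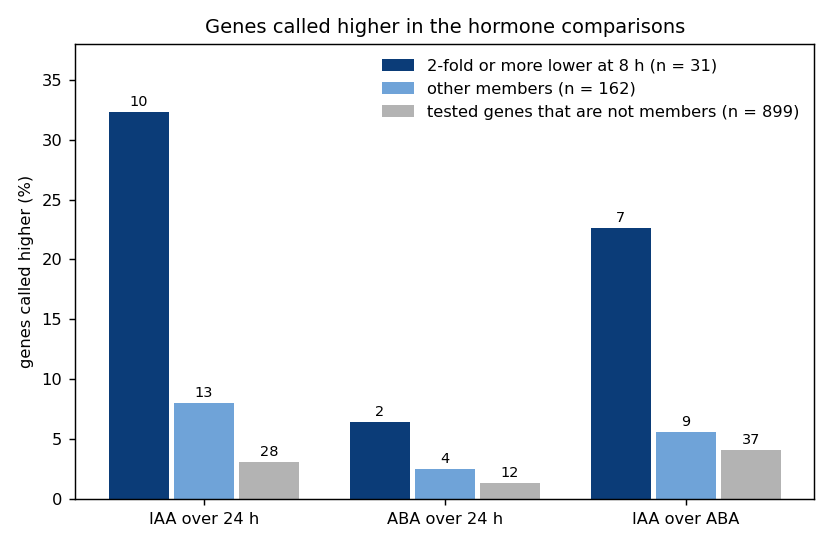
Percent of genes called higher with IAA than at 24 h, with ABA than at 24 h and with IAA than with ABA, for the 31 members lower by 2-fold or more at 8 h on the log2(FPKM + 1) scale (dark blue), the other 162 members (light blue) and the 899 tested genes that were not members (grey). The numbers on the bars are genes, and the tallest bar is the 10 of 31 (32.3%) for IAA over 24 h.

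The members also differed by their later course. Of the 26 members that were lower again by 0.5 or more after 8 h, 7 (26.9%) were higher with IAA than with ABA, a comparison that uses none of the libraries that define this group. Among the 103 that were lower again by less it was 7 (6.8%), and among the 64 that were level or in part higher it was 2 (3.12%). These groups were formed after the values were seen and were not tested.

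Neighbouring members were found in several places. When the tested genes are taken in their order along the chromosome, 74 of the 193 members (38.3%) had another member as the next tested gene on one side or the other, against 345 of all 1092 tested genes (31.6%). There were 2 runs of 5 neighbouring members, 1 of 4 and 6 of 3. The densest was a run of 5 minus-strand genes within 25.2 kb, from 1341319 to 1366503, where the other 3 genes of the table were under 0.1 FPKM in every library. It holds LOC_Os01g03320, LOC_Os01g03330 and the gene at 1353629 described above. Reads shared between near-identical neighbours could be split by the counting, and whether this touches these values was not tested.

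In this run the dark levels ran from 3.32 to 344 FPKM. The gene at 1347567 to 1348786 had 307 and 299.9 FPKM at 0 h, 165 and 163 FPKM at 8 h, 56.2 and 50.0 FPKM at 24 h, 104 and 106 FPKM with ABA, and 89.6 and 92.6 FPKM with IAA. Both sprays were followed by levels above 24 h and far below the dark, with log2 differences of 0.97 and 0.77 that were under the 2-fold limit. The gene at the far end, from 1365508 to 1366503, had 99.4 and 83.3 FPKM at 0 h, 60.1 and 54.5 FPKM at 8 h, 87.0 and 73.5 FPKM at 24 h, 105 and 111 FPKM with ABA, and 107 and 102 FPKM with IAA. It was the 1 gene of the run whose level at 24 h was close to that in the dark, so that neighbours that were all lower at 8 h parted afterwards.

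The members were shorter than the tested genes as a whole, with a median span of 2702 bp (quartiles 1670 and 4180 bp) against 3592 bp. They lay on both strands, 93 on the plus and 100 on the minus strand, and 67.4% of them began before the midpoint of the stretch, as did 68.2% of all tested genes. The span of 2 members overlapped that of another gene in the table, and their values are uncertain because reads were counted without strand in the study's methods and no strand setting is given for the FPKM. The mean level over all 10 libraries had a median of 7.71 FPKM in the members and 9.58 FPKM over all tested genes.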

How the data were processed

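Per the study's methods, reads were trimmed (seqtk), aligned (Hisat2) and converted to FPKM with Cufflinks by the authors, whose deposited table holds an FPKM column for each library. SAMtools, featureCounts and DESeq2 stand in the submitters' processing notes too, with no version. Of 2283 rows, 1 was incomplete and left out, and 491 are at 0 in every library. Part of chromosome 1 is analysed here. The depth is unknown: where both replicates of a gene were under 0.1 FPKM, no more than 10.1% of genes had a common replicate ratio within 2%, so no step for a single read was seen.

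Comparisons between conditions used limma (version 3.58.1, R 4.3.3, with lmFit and a trended eBayes) on log2(FPKM + 1) over all 10 libraries and the 1092 genes that averaged 1 FPKM or more. A call needs a 2-fold change and a Benjamini-Hochberg adjusted p under 0.01 over all these genes. FPKM are not counts, so DESeq2 was not run. The fit was also run on simulated data with planted changes, and no result of that run is used here. Other steps used pandas 2.3.3, numpy 2.4.6, scipy 1.17.1 and matplotlib 3.10.9 in Python 3.11.15. Since the labels do not tie the replicates to separate growth batches, p-values measure the spread between these samples.

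The members and lists were chosen with earlier results of these data known. The rule for named genes took the 12 members with the lowest change at 8 h, the 5 with the highest mean, 2 genes on each side of each limit, and up to 5 called members per direction of a hormone comparison whose libraries did not overlap. Lists by product name, tissue lists and promoter motifs were not used here, since the IDs were not matched to the RefSeq table (assembly ASM3414082v1). The alternatives were a pseudocount of 0.1, the filter on the mean dropped or raised to 5 FPKM, library factors by median-of-ratios, fits to only the libraries compared, a replicate block, an adjusted p under 0.05, other limits of the rule and each replicate left out. The rule in single replicates, the split of the 24 h replicates, and the rescaling of the rule and of the regained shares were added after seeing the data.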

Additional observations from a re-analysis of the deposited data

Results flagged for a closer look

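LOC_Os01g37000 stood out because its response from 24 h differed between the hormones in a test of the difference itself. It was called higher with IAA and lower with ABA, and IAA and ABA differed by 2.50 in log2 units (SE 0.109, limma adjusted p = 1.55e-08). With ABA it had 0.688 and 0.402 FPKM, and the difference between IAA and ABA ran from 2.36 with median-of-ratios factors to 3.64 with a pseudocount of 0.1.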

How the results depend on the processing

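The number of members was 88 with median-of-ratios factors, all of them among the 193, 124 when the mean had to reach 5 FPKM, and 31 with a limit of -1 at 8 h. With a library of 0, 8 or 24 h left out it ran from 190 to 203.

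When the mean had to reach 5 FPKM, which leaves fewer genes, 13 members were higher with IAA and 3 with ABA than at 24 h. Over all genes tested in that setting it was 36 and 15. In the hormone against hormone comparison IAA was then higher in 9 and lower in 1, against 32 and 8 over all genes tested there. The medians were 0.35 for IAA over 24 h and 0.31 for IAA over ABA, against 0.17 and 0.23. A pseudocount of 0.1 gave 12 higher and 4 lower with ABA, against 25 and 10 over all tested genes. The medians were then 0.35 for IAA over 24 h and 0.30 for IAA over ABA, against 0.16 and 0.25. Median-of-ratios factors, which remove the shift of the median gene by construction, gave 13 higher with ABA than at 24 h and 5 with IAA below ABA. Over all tested genes it was 26 and 18. The member medians were 0.15 for IAA over 24 h, 0.088 for ABA over 24 h and 0.0041 for IAA over ABA. Those over all tested genes were -0.0087, 0.0070 and -0.039. The share of the fall regained turned from -3.34% to 21.1% for ABA and was 41.7% for IAA. At or above the lower dark library were 48 members with IAA and 37 with ABA, against 56.5% and 55.4% of all tested genes. These factors were also put into both the rule and the fit, a choice made after seeing the data. Of the 88 members that this rule gave, 11 were higher with IAA than at 24 h, 9 with ABA than at 24 h and 9 with IAA than with ABA. Over all tested genes it was 36, 26 and 27.

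With each library left out in turn, where the lone sample of a group is assumed to vary like the others, 18 to 30 members were higher with IAA and 4 to 12 with ABA than at 24 h, 1 to 2 were lower with ABA, and IAA exceeded ABA in 16 to 18 and lay below it in 3. The medians ran from 0.28 to 0.32 for IAA over 24 h, from -0.06 to 0.04 for ABA over 24 h and from 0.25 to 0.30 for IAA over ABA. Libraries with the same replicate number showed no strong shared shift, since correlations of the replicate differences across conditions lay between -0.07 and 0.11. Whether the replicates were paired cannot be told from these values. A replicate block left the counts at 23 and 0 for IAA, 6 and 1 for ABA, and 16 and 3 between the hormones. Over all tested genes the block gave 51 and 1, 18 and 4, and 53 and 10. Of the members named by the rule and called, 7 of 9 for IAA, 5 of 6 for ABA and 10 of 11 between the hormones were called under every alternative that tested them. No other alternative moved a count by more than 1.5 times.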
